A study of Mus musculus with 4 samples.

Results

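Expression of 10 genes that mark muscle regeneration and denervation was followed in the peritoneum of C57BL/6J mice, the membrane that lines the abdominal cavity. The genes were given by name, in a list drawn up with earlier results of these data known, and are 10 of the 18193 named genes on the array: the myogenic factors Myog, Myod1, Myf5 and Myf6, the developmental myosins Myh3 and Myh8, the acetylcholine receptor subunits Chrna1, Chrnd and Chrng, and the stress protein Ankrd1. Together they have 14 probe sets, 3 for Chrng, 2 each for Myod1 and Ankrd1 and 1 for each of the others. Wild-type mice and SAP-BNP-Tg mice, in which the serum amyloid P promoter drives a brain natriuretic peptide transgene, were given either chlorhexidine gluconate, a disinfectant used here as a chemical irritant, or ethanol in PBS, called vehicle below. Chlorhexidine was injected into the peritoneal cavity at 0.1% in 15% ethanol and 85% PBS, with 0.01 mL per gram of body weight given 3 times per week for 21 days. For the vehicle mice the sources used here give neither the volume nor the schedule. Serum amyloid P is a plasma protein made by the liver. Each of the 4 groups was measured on 1 Affymetrix array, and the labels give neither the number, age nor sex of the mice behind it.

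When a muscle fibre is damaged, its satellite cells divide under Myf5 and Myod1, differentiate under Myog and fuse, and the new fibre first makes the embryonic and perinatal myosins Myh3 and Myh8 before it switches to adult forms. Nerve contact shapes the same genes. An adult innervated fibre keeps its acetylcholine receptors at the synapse and builds them with the epsilon subunit, whereas a fetal, regenerating or denervated fibre makes receptors along its whole length and uses the gamma subunit.

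Values below are signals, on a linear scale, after each array was multiplied to a common trimmed mean. A probe set is Present where the authors' detection call found it above background. A gene is called 2-fold higher or lower where its log2 difference was at least 1, its brighter array was Present and its signal there exceeded the dimmest 25% of Present probe sets, a limit of 34.6 to 35.2. This is a rule of size and carries no p-value, since no group has a second array. In whole-tissue RNA, more cells of a type and more RNA per cell cannot be told apart. The arrays called 50.5% to 55.1% of 45037 probe sets Present. All 8 mesothelial markers and all 20 adult muscle fibre genes were Present on every array, and 18 to 20 of the fibre genes lay in the top 1% of probe sets. Among the control probe sets, the wild-type vehicle array had a mean 18S ribosomal signal of 898.5 against 82.8 to 117 on the others and a beta-actin signal 5.81 times higher at the 3-prime end than in the middle, against 2.23 to 2.84. The ratio of the 3-prime to the 5-prime actin signal was 1.22 there and 1.07 to 1.15 on the others.

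Chlorhexidine peritoneum had a higher signal of 6 of the 10 genes in both genotypes, namely Myog, Myh3, Myh8, Chrna1, Chrng and Ankrd1. The background is 8.21% of 12754 genes 2-fold higher in wild type, 3.74% in transgenic mice and 2.98% in both. None of the 10 was 2-fold lower, where 4.95% of all genes were in wild type and 1.43% in transgenic mice. The other three myogenic factors, Myod1, Myf5 and Myf6, differed by at most 1.21-fold, and Chrnd was not Present on any array. Thus 9 of the 10 genes were Present somewhere, and Chrng passed only through its chlorhexidine arrays. Over the 8 genes Present on all arrays, the median log2 difference was 1.95 for wild type and 1.40 for transgenic mice, against -0.02 and -0.02 for the 10406 genes of that kind. Both chlorhexidine arrays lay above both vehicle arrays for 7 of the 9 genes Present on an array, against 29.7% of the 12754 genes of that kind. Chrng is among the 7, and without it the count was 6 of the 8 genes Present on all arrays.

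**Figure D1:**
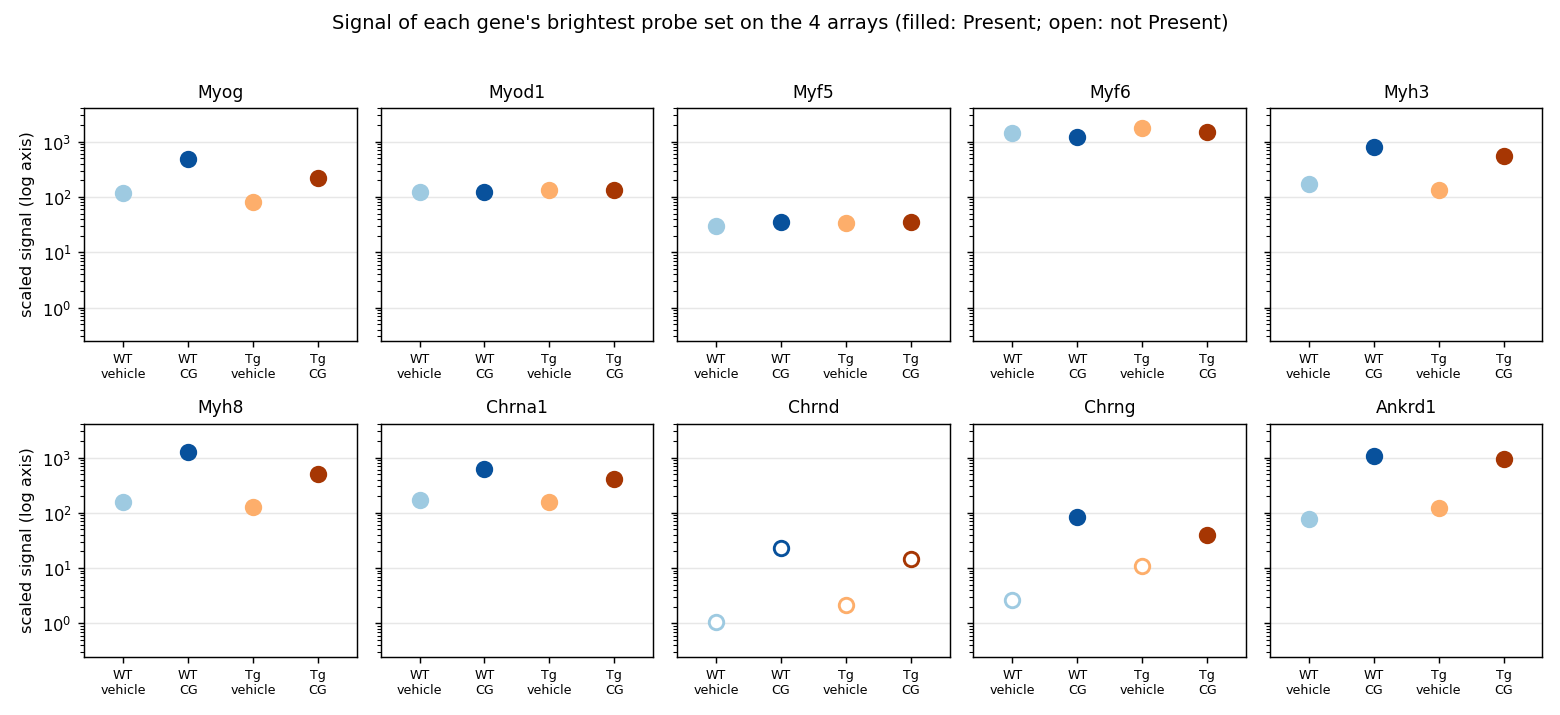
Scaled signal (log axis) of each gene's brightest probe set on the 4 arrays, 1 point per array: wild type (WT) and transgenic (Tg), vehicle and chlorhexidine gluconate (CG). Filled points are Present and open points are not. For Myog, Myh3, Myh8, Chrna1, Chrng and Ankrd1 both CG points lie above both vehicle points, whereas Myod1, Myf5 and Myf6 stay level and Chrnd is open on every array.

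Among the myogenic factors, basic helix-loop-helix proteins that switch on muscle genes, Myog alone was called. Its signal was 118 with vehicle and 481 with chlorhexidine in wild type, and 82.2 and 216 in transgenic mice. Both chlorhexidine arrays thus lay above both vehicle arrays, and the wild-type one was the highest. The differences were 4.09-fold and 2.63-fold. Against the wild-type vehicle array, the transgenic log2 difference of Myog was 0.88, short of a call. Myog drives the step from dividing myoblast to fusing muscle cell. Myod1, which commits cells to the muscle fate, had signals of 124 and 122 in wild type and 133 and 132 in transgenic mice, so each chlorhexidine array was within about 1.08-fold of each vehicle array. Myf5, the earliest of these factors in satellite cells, was Present but dim, at 29.6 and 35.0 in wild type and 34.3 and 34.9 in transgenic mice, all below the limit set for calls. Myf6, also called MRF4, is the factor kept in adult fibres. Its signal was 1436 with vehicle and 1217 with chlorhexidine in wild type, and 1777 and 1473 in transgenic mice, so it was lower with chlorhexidine in both, by 1.18-fold and 1.21-fold. That direction depended on the scaling. The wild-type Myf6 log2 difference was 0.01 in the signals as deposited and 0.03 after recentring on adult fibre genes, and it was 0.04 for transgenic chlorhexidine against the wild-type vehicle array. Myf5 and Myf6 are neighbouring genes, and neither was called in any comparison. A second Myod1 probe set, which can cross-hybridise by its design, was not Present on any array, with signals from 3.74 to 10.98.

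The region upstream of Myog is shown because it is the one myogenic factor that differed. The sequence is the 250 bases before the annotated start (RefSeq, GRCm38.p6, chr1:134289754-134290003, plus strand), 5′ to 3′, with capitals marking E-boxes, the CANNTG letters that these factors recognise:
Myog: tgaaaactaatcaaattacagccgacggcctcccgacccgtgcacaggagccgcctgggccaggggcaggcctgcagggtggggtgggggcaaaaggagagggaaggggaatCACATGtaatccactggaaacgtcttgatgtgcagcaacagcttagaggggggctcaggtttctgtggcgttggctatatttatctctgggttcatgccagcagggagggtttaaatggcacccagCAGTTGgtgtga
It holds 2 such matches. Of 32851 promoter windows of this length, 31.8% hold 2 or more, so the count by itself does not set Myog apart. Upstream windows were found for 7 of the 10 genes.

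The developmental myosins had large differences. Myh3, the embryonic heavy chain, had a signal of 169 with vehicle and 789 with chlorhexidine in wild type, and 135 and 547 in transgenic mice. Both chlorhexidine arrays were well above both vehicle arrays, by 4.67-fold and 4.06-fold within genotype. Myh8, the perinatal heavy chain, went from 159 to 1235 in wild type and from 127 to 500.5 in transgenic mice. This was 7.77-fold and 3.94-fold. The vehicle arrays of the genotypes were close for both genes, at 1.26-fold and 1.25-fold apart, while the chlorhexidine arrays were 1.44-fold apart for Myh3 and 2.47-fold for Myh8. Myosin heavy chain genes are close relatives, and each of these 2 genes rests on 1 probe set, so cross-hybridisation between them was not tested.

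The adult counterparts did not share this pattern. Of the 20 adult fibre genes, which include the adult myosins Myh1, Myh2 and Myh4, none was 2-fold higher in either genotype. That compares with 8.21% of all genes in wild type and 3.74% in transgenic mice. The median log2 difference of the fibre genes was -0.28 for wild type and 0.02 for transgenic mice. In wild type the median was -0.03 in the signals as deposited and turned to 0.23 under cyclic loess. It was also -0.03 when the vehicle array was the transgenic one. In transgenic mice it was -0.25 when the vehicle array was the wild-type one. The brightest were the fast troponins Tnnt3, 1.35-fold and 1.05-fold lower, and Tnni2, 1.18-fold lower and 1.01-fold higher. Tnnt3, at 11460, was the highest signal on the wild-type vehicle array, and the highest signals on the other arrays were 9275 to 9859. Whether signals this near the top could still register a rise was not tested. The summed signal of the 20 fibre genes was 174131 with vehicle and 136324 with chlorhexidine in wild type, and 141088 and 139326 in transgenic mice. With every array recentred on these fibre genes, the same 6 genes of the regeneration and denervation list were called in each genotype, and the wild-type Myog log2 difference was 2.30.

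Of the 3 listed receptor subunits, Chrna1 was the one Present on every array. It encodes the alpha subunit, which binds acetylcholine. Its signal was 172 with vehicle and 627 with chlorhexidine in wild type, and 155 and 408 in transgenic mice. Both chlorhexidine arrays exceeded both vehicle arrays, by 3.65-fold and 2.64-fold within genotype.

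Chrng encodes the fetal gamma subunit, and its probe sets disagreed. The first, brightest probe set had signals of 2.70 (not Present) with vehicle and 83.4 (Present) with chlorhexidine in wild type, and 11.2 (not Present) and 39.3 (Present) in transgenic mice. It was at least 28.4-fold higher in wild type and at least 3.53-fold higher in transgenic mice, where each bound is taken against the higher of the vehicle array's lowest Present signal and the probe set's own signal there. The wild-type bound rests on the wild-type vehicle array, and it was at least 7.47-fold against the transgenic one. With a pseudocount of 32 the log2 differences were 1.73 in wild type and 0.72, short of a call, in transgenic mice. The second probe set was also Present on both chlorhexidine arrays alone, with signals of 5.40 and 32.6 in wild type and 0.351 and 20.5 in transgenic mice, which gave at least 6.04-fold and at least 6.31-fold. Both probe sets therefore put chlorhexidine above vehicle in each genotype. They differ on which genotype had the larger difference, the first giving the wild type and the second the transgenic by signals that were not Present under vehicle. The detection p-values, made by the authors, were 0.000732 for both probe sets on the wild-type chlorhexidine array, and 0.0303 and 0.0186 on the transgenic one. The remaining probe set was not Present on any array, with signals from 0.703 to 3.32. The last 2 of these were designed on one partially processed transcript, per the file's descriptions.

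**Figure D2:**
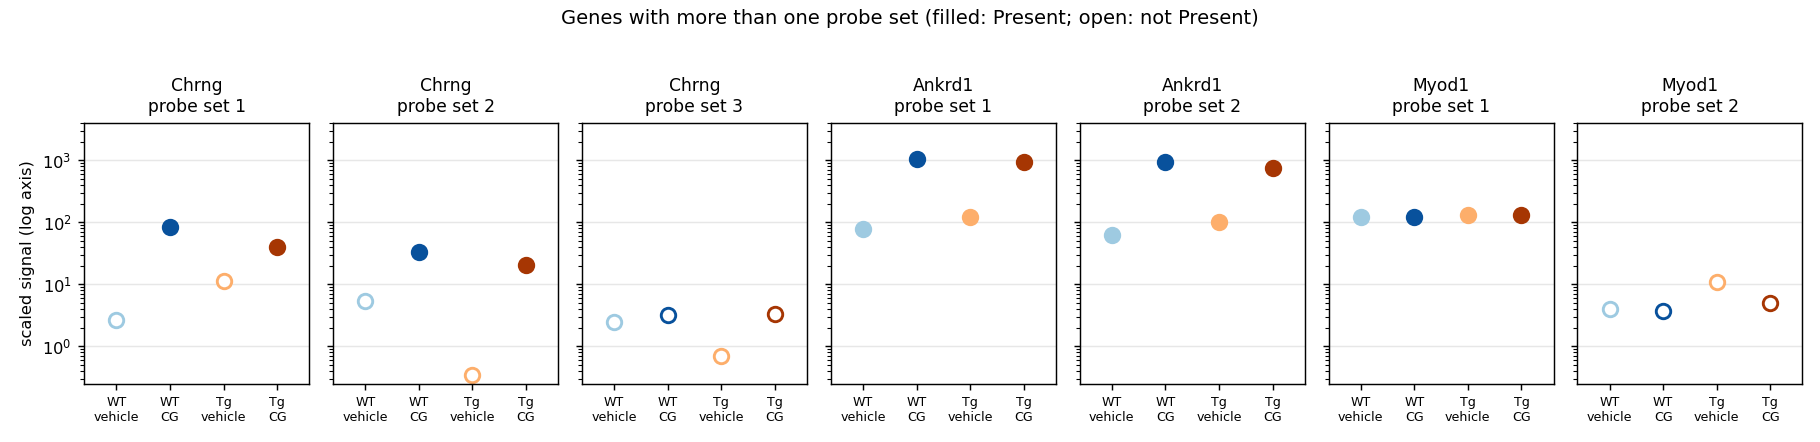
Scaled signal (log axis) of every probe set of Chrng, Ankrd1 and Myod1 on the 4 arrays, filled where Present and open where not. Chrng probe sets 1 and 2 are filled on the chlorhexidine (CG) arrays alone and rank the vehicle arrays in opposite order, the Ankrd1 probe sets give the same picture, and Chrng probe set 3 and Myod1 probe set 2 are open throughout.

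Chrnd, the delta subunit gene and the neighbour of Chrng on the chromosome, was not Present on any array. Its signals were 1.06 and 23.1 in wild type and 2.20 and 14.4 in transgenic mice. Both chlorhexidine arrays were the higher ones, but the authors' detection p-values ran from 0.150 to 0.866 and no fold is given. Among the other subunits, both named after their values were seen, Chrnb1 (beta) was 1.80-fold and 1.73-fold higher and fell short of the rule. The adult epsilon subunit Chrne was Present throughout, at 31.8 and 30.2 in wild type and 28.1 and 27.3 in transgenic mice. All of these signals were below the limit set for calls. Chrne was thus level but dim across the arrays, while its fetal counterpart Chrng was Present with chlorhexidine alone.

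The upstream windows of both called subunits are shown because both hold repeated E-boxes of the form CAGCTG. Capitals mark all CANNTG matches in the 250 bases before each start (RefSeq, GRCm38.p6), for Chrna1 at chr2:73580339-73580588, minus strand, and for Chrng at chr1:87205561-87205810, plus strand, each printed 5′ to 3′ along its gene:
Chrna1: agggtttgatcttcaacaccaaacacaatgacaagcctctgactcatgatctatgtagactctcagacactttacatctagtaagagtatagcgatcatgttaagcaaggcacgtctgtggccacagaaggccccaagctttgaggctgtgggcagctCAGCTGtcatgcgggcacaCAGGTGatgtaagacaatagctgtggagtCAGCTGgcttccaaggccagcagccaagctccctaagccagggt
Chrng: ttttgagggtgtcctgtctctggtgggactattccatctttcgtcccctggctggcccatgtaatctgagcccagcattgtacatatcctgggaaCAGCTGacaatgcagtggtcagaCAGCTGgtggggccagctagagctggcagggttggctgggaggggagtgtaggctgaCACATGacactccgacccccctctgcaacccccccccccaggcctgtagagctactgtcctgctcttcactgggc
Each window holds 3 CANNTG matches, 2 of them CAGCTG, which reads the same on both strands. Of all windows, 12.2% hold 3 or more CANNTG and 1.26% hold 2 or more CAGCTG. As the windows were picked for holding these letters, the shares describe them and test nothing. No window was found for Chrnd. The windows of Myog, Myh3, Myh8, Myf5 and Ankrd1 held no CAGCTG.

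Ankrd1, a titin-associated ankyrin repeat protein of stressed and denervated muscle, had 2 probe sets that agreed. The brighter had signals of 77.1 with vehicle and 1060.4 with chlorhexidine in wild type, and of 119.99 and 939.6 in transgenic mice. The other gave 62.2 and 937 in wild type and 99.96 and 759 in transgenic mice. All were Present. The differences were 13.8-fold and 15.1-fold in wild type and 7.83-fold and 7.59-fold in transgenic mice. The 2 vehicle arrays differed by 1.56-fold, with the transgenic one higher, whereas the chlorhexidine arrays were 1.13-fold apart. The wild-type log2 difference was 3.78, or 3.14 when taken against transgenic vehicle.

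Ankrd1 is also a target of YAP and TEAD, factors that respond to cell shape and tension, and TEAD proteins recognise the letters CATTCC. Its upstream window (RefSeq, GRCm38.p6, chr19:36119845-36120094, minus strand) is printed 5′ to 3′ with matches on either strand in capitals:
Ankrd1: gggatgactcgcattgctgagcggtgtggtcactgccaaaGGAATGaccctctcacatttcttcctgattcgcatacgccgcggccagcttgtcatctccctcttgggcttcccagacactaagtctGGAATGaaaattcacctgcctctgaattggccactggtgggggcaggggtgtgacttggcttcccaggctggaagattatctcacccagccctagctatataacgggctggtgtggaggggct
It holds 2 matches. Of all windows 1.02% hold 2 or more, and none of the other 6 windows held any. As this window is printed for its matches, the share describes it and tests nothing. Of 10 other YAP and TEAD targets, 5 were called higher in wild type and 2 in the transgenic pair. The shares of all genes were 8.21% and 3.74%. The list's median log2 difference was 0.90 in wild type and -0.05 in the transgenic pair. The latter turned to 0.56 against the wild-type vehicle array. Fstl1, a secreted glycoprotein, was 3.93-fold and 2.85-fold higher and the matrix factor Ccn2 2.64-fold and 2.25-fold. Ccn1, a related matrix protein, was 2.74-fold higher in the wild-type pair of arrays and 1.94-fold lower in the transgenic pair.

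The relatives of Ankrd1 showed no such pattern. Of 9 measured ankyrin repeat relatives and other load-responsive muscle genes, none was 2-fold higher in wild type, 2 were 2-fold lower, and 1 was 2-fold higher in transgenic mice. The shares of all genes were 8.21%, 4.95% and 3.74% in that order. The medians of this list were -0.59 and 0.43, or 0.11 and -0.15 when the vehicle arrays were exchanged between the genotypes. Mustn1, a small nuclear protein of regenerating muscle and bone, was 1.91-fold and 1.95-fold higher, and the titin cap Tcap 1.58-fold and 1.23-fold lower. Ankrd2, a close relative, went the opposite way in the genotypes. Its signal was 1297 with vehicle and 434 with chlorhexidine in wild type, and 383 and 1042 in transgenic mice, so the wild-type vehicle array and the transgenic chlorhexidine array were the high ones. It was named after its values were seen.

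Genes that act beside the myogenic factors gave a split picture. Of 21 measured genes of myoblast differentiation, fusion and young fibres, 9 were called higher in wild type and 8 of these also in transgenic mice. The shares of all genes were 8.21% in wild type and 2.98% in both genotypes. The list's median log2 differences were 0.43 and 0.61. The genes that let myoblasts fuse were among them. Myomaker, Mymk, had a signal of 23.7 and 151 in wild type and of 24.3 and 88.5 in transgenic mice, 6.37-fold and 3.64-fold higher. Myomixer, Mymx, was not Present on either vehicle array and was higher by at least 5.60-fold in wild type and at least 5.12-fold in transgenic mice. The young-fibre sarcomere genes Tnnt2 and Myl4 were 5.70-fold and 3.93-fold higher, and 4.85-fold and 4.23-fold higher. The remaining 4 called in both were Cdkn1a, a cell cycle inhibitor (4.93-fold and 2.67-fold), the adhesion protein Ncam1 (3.68-fold and 3.54-fold), the satellite cell receptor Megf10 (3.94-fold and 3.51-fold, both lower bounds), and Actc1, the fetal sarcomere actin (2.54-fold and 2.15-fold). Igf2, a growth factor, was called in wild type, at 5.14-fold, and was 1.75-fold higher in transgenic mice. The satellite cell transcription factors Pax7 and Pax3 had chlorhexidine signals under the limit set for calls, so neither could be called higher. Pax7 had signals from 18.9 to 32.5 and was Present on the wild-type chlorhexidine array alone. Both of its chlorhexidine signals lay above both vehicle signals. Pax3, at 20.9 and 24.7 in wild type, was 49.8 with vehicle and 20.4 with chlorhexidine in transgenic mice, the list's one gene called lower. Of the 20 genes of this list Present on an array, 14 had a positive log2 difference in wild type and 15 in transgenic mice. Among those lower in both genotypes, Mybph was 1.71-fold and 1.48-fold lower, Mef2c 1.44-fold and 1.26-fold, and Mef2d 1.36-fold and 1.28-fold. None of the 3 was called.

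Of 15 other measured genes of the neuromuscular junction and the denervation response, 3 were 2-fold higher in both genotypes, against 2.98% of all genes. They were Runx1, a transcription factor that denervated muscle makes (13.6-fold and 3.46-fold), the synapse organiser Agrn (3.91-fold and 2.73-fold) and the stress gene Gadd45a (3.25-fold and 2.47-fold). Runx1 is also a blood cell gene, and it had signals of 18.8 and 254 in wild type and of 44.1 and 153 in transgenic mice. Musk, the receptor kinase of the synapse, was called in wild type, at 2.21-fold, and was 1.12-fold higher in transgenic mice. Of the 15 genes, 8 had a positive log2 difference in wild type and 6 in transgenic mice. Myh7b, a myosin on this list, was called lower in wild type, at 2.21-fold, where 4.95% of all genes were. It was the list's one gene called lower. Rapsn was 1.49-fold and 1.10-fold lower and Dok7 1.37-fold and 1.45-fold lower, neither called. Dach2, a repressor of Myog, was Present on both vehicle arrays and on neither chlorhexidine array, with signals of 32.3 and 10.8 in wild type and 32.6 and 15.6 in transgenic mice, under the limit for a call. The medians of this list were 0.03 and -0.07, and the wild-type one was 0.54 when probe sets of a gene were averaged, where the median of all genes was 0.06.

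**Figure D3:**
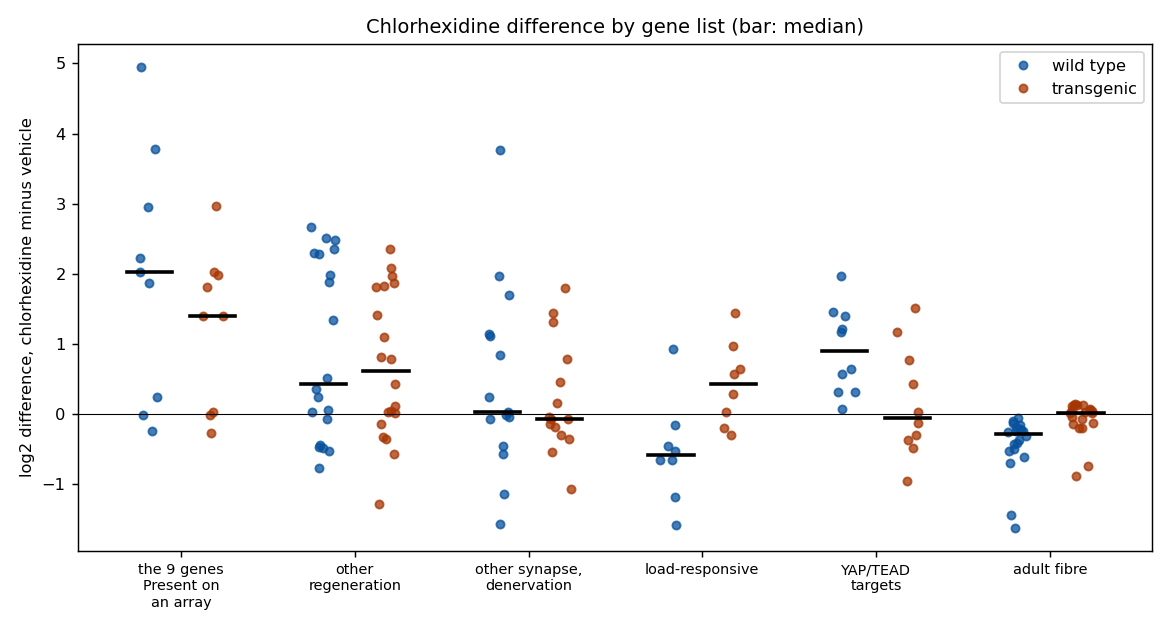
Log2 difference, chlorhexidine minus vehicle, of each gene Present on at least 1 array, by list, in wild type (blue) and transgenic mice (brown), with a bar at the median. The bars of the 9 genes at the left stand at 2.03 and 1.40, and those of the adult fibre genes at -0.28 and 0.02.

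Several cell types differed along with these genes. All 7 fibroblast markers had a positive log2 difference in both genotypes, with medians of 0.87 and 0.54, and their summed signal was 18399 with vehicle and 36124 with chlorhexidine in wild type, and 18653 and 30905 in transgenic mice. Dcn was 1.34-fold and 1.14-fold higher and Col3a1 1.82-fold and 1.75-fold. All 7 macrophage markers were positive too, with medians of 0.84 and 0.50 and sums of 4846, 7684, 5032 and 7191 in the same order, with log2 differences of 0.59 and 0.38 for Lyz2 and 0.28 and 0.38 for Csf1r. The 6 smooth muscle markers had medians of 0.26 and 0.02 and sums of 2345, 3182, 2288 and 2299.7. Of them, 4 had a positive log2 difference in each genotype, with Acta2 1.31-fold and 1.01-fold and Tagln 2.06-fold and 1.19-fold higher. Smtn was 1.01-fold and 1.22-fold lower, and Lmod1 1.59-fold and 2.06-fold lower, called in transgenic mice. Each fibroblast, macrophage and smooth muscle marker was Present on at least 1 array. The part of these cells in the values of Ankrd1, Runx1 or Cdkn1a, which cells other than muscle also express, was not tested. Schwann cell and axon markers, which bear on the nerve, were measured by 5 of 8 genes. The neurofilament Nefl was not Present on any array, and the 4 others had medians of -0.42 and -0.15 and sums of 1460, 1138, 1337 and 1363. Myelin gene Mbp was 2.61-fold and 1.38-fold lower and Pmp22 1.07-fold lower and 1.12-fold higher. S100b was 1.67-fold and 2.16-fold lower, with all signals under the limit set for calls. Sox10 had signals of 30.0 (not Present) and 30.6 in wild type and was 1.35-fold higher in transgenic mice.

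The transgenic and wild-type arrays were then compared under each treatment. These comparisons use the same 4 arrays as the chlorhexidine differences. With vehicle, none of the 10 genes was called, where 0.949% of all genes were 2-fold higher in transgenic mice and 0.502% lower. With chlorhexidine, 3 of the 10 were 2-fold lower in transgenic mice, where 0.988% of all genes were. They were Myh8 (1235 against 500.5, 2.47-fold), Myog (481 against 216, 2.23-fold) and Chrng (83.4 against 39.3, 2.12-fold). No gene of the list was called higher, where 0.761% of all genes were. The second Chrng probe set was 32.6 against 20.5, under the limit for a call. The Chrng log2 difference was -0.69 with a pseudocount of 32 and -0.57 when its probe sets were averaged, and its call was lost in both. Chrna1 was 1.54-fold, Myh3 1.44-fold and Ankrd1 1.13-fold lower, none of them called, and Myf6 was 1.21-fold and Myod1 1.08-fold higher. For 7 of the 9 genes Present on an array the wild-type chlorhexidine array was the highest, the transgenic chlorhexidine array next and both vehicle arrays below, an order seen in 22.8% of all such genes. Those 7 include Chrng, whose vehicle signals were not Present, and Myf5, whose signals were all within about 1.18-fold of each other. Over all tested genes, 3785 had both chlorhexidine arrays above both vehicle arrays, and in 2903 of these the wild-type one was the highest. The order was thus the common one among such genes and does not set the 7 apart.

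The signed log2 difference was higher in wild type for 8 of the 9 genes Present on an array, against 49.3% of all such genes, Myod1 being the exception. For Myf6 this means that it was slightly less far below 0 in wild type, at -0.24 against -0.27. For Chrng it rests on vehicle signals that were not Present, and its second probe set gave the opposite order, 2.60 in wild type and 5.87 in transgenic mice. Without Chrng the count was 7 of 8. A higher wild-type difference was also seen for all 7 fibroblast markers, 6 of 7 macrophage markers, all 10 YAP and TEAD targets and all 6 smooth muscle markers. It was seen for 13 of 20 other regeneration genes, 10 of 15 other synapse genes and 1 of 4 Schwann cell markers. No adult fibre, mesothelial or load-responsive gene had it. The trait is thus not particular to the listed genes. Over the 8 genes Present on all arrays the median of transgenic minus wild type was -0.35 on the log2 scale, where it was 0.02 for all genes of that kind. Among single genes it was -0.98 for Myh8, -0.81 for Ankrd1, -0.64 for Myog, -0.47 for Chrna1 and -0.20 for Myh3. The SD between probe sets of the same gene in this quantity was 0.48. The values for Chrna1 and Myh3 are thus no larger than the disagreement between probe sets, and no test of the difference between genotypes was made, since a fit that holds it leaves no residual degree of freedom.

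**Figure D4:**
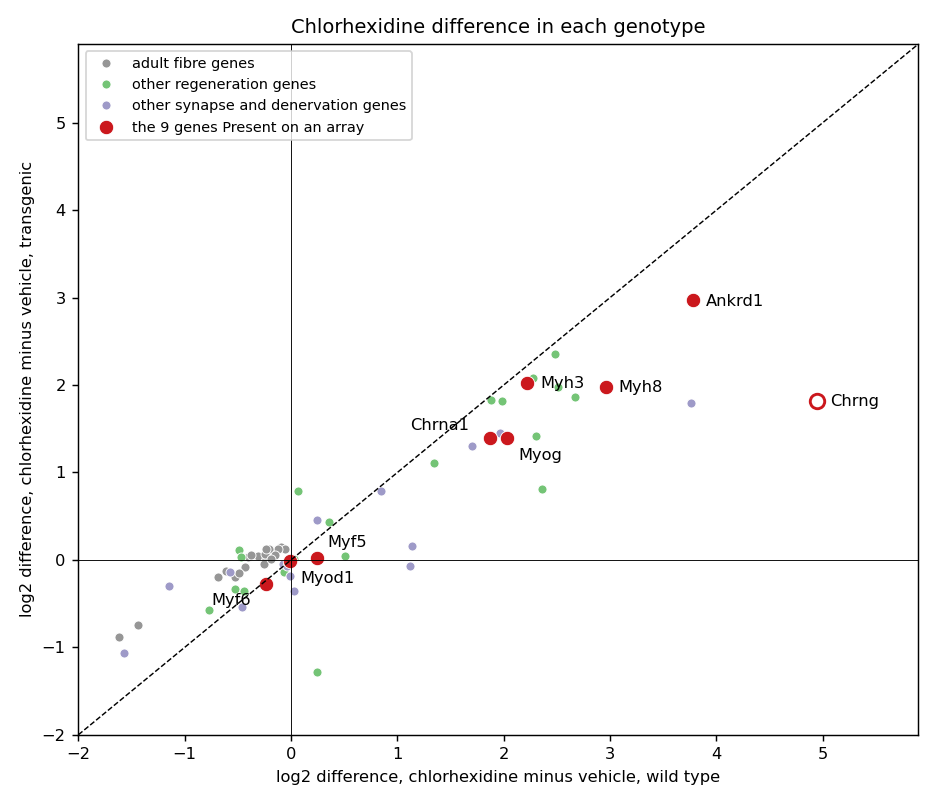
Log2 difference, chlorhexidine minus vehicle, in wild type (horizontal) and transgenic mice (vertical), 1 point per gene, with the dashed line marking equal differences. Myog, Myh8, Chrna1, Myh3 and Ankrd1 lie below the line, most adult fibre genes sit near 0 with Myh7 and Tnnt1 at the lower left, and Chrng is open because its vehicle arrays were not Present, so its place rests on undetected signal.

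An additive limma fit over the 4 arrays, with terms for treatment and genotype and 1 residual degree of freedom, covered the 12754 genes with a Present call somewhere. Adjusted by Benjamini-Hochberg over that whole table, none of the 9 genes tested passed for chlorhexidine, nor did any gene on the array (0% of genes). At an unadjusted p under 0.05 the limma fit gave 6 of the 9, where 22.6% of all genes were that low. Chrng is among the 6, although it entered the fit only through its chlorhexidine arrays and its vehicle signals were not Present. By limma, Ankrd1 had a log2 coefficient of 3.38 (SE 0.28, adjusted p = 0.0684), higher with chlorhexidine in both of the genotypes. Myh3 had 2.12 (SE 0.21, adjusted p = 0.0684), Myh8 2.47 (SE 0.31, 0.0750), Chrna1 1.63 (SE 0.23, 0.0823) and Myog 1.71 (SE 0.26, 0.0836). Over the other settings the smallest adjusted p of any of the genes in the limma fit ran from 3.95e-09 to 0.406. The fit takes a difference in response between genotypes as error.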

How the data were processed

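RNA of the peritoneum was measured on 4 Affymetrix arrays, 1 per group, per the labels. The deposited signals are intensities on a linear scale, 1 per probe set, each with the authors' call and detection p-value, per the file headers. No algorithm or scaling target is stated in the labels or headers. The series table held the same signals (0 values differing by over 0.05). No raw scanner files were used.

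Each array was multiplied to a common 2% trimmed mean (factors 1.17 for vehicle and 0.985 for chlorhexidine in wild type, 0.878 and 1.01 in transgenic mice), floored at 0.1 and put on the log2 scale. The 64 controls among 45101 probe sets were dropped, and 34945 of the remainder had 1 symbol in the platform annotation, 932 several and 9160 none. Symbols were updated for 34741 probe sets through a RefSeq table (GRCm38.p6). Each gene is represented by its brightest probe set, by mean log2 signal over the arrays. Fits used limma 3.58.1 in R 4.3.3. The code was run on simulated data with the same spread for every gene and no difference in response between genotypes. That run does not gauge how the fit performs on these arrays.

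The members and all lists were chosen with earlier results of these data known. Beside the members, the rule for named genes took up to 4 genes called in both genotypes from each pathway list, or the 2 of largest mean difference, and the 2 brightest genes of each cell type list. Chrnb1, Chrne, Pax7, Pax3, Ncam1, Cdkn1a, Actc1, Megf10, Igf2, Musk, Dach2, Nefl, Ankrd2, Csrp3, Ccn1, Axl, F3, Krt19, Myh7, Myh7b and Tnnt1 were named after their values were seen. So were Wt1, Smtn, Lmod1, Mybph, Mef2c, Mef2d, Rapsn, Dok7, S100b and Sox10. With 1 array per group, the number of arrays limits the precision. The limma p-values measure no spread between replicates. They rest on 1 residual degree of freedom, the difference in response between the genotypes, drawn towards the spread over all genes. That difference may be technical.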

Additional observations from a re-analysis of the deposited data

Results flagged for a closer look

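By their brightest probe sets, none of the 10 regeneration and denervation genes had chlorhexidine differences of opposite sign in the genotypes. Among the other genes named, 6 did, with a gap over the SD of 0.48 between probe sets of a gene. With 1 array per group, the difference was not tested. Transgenic minus wild-type chlorhexidine differences on the log2 scale were 3.02 for Ankrd2, 1.47 for Csrp3, a muscle LIM protein, and -2.41 for Ccn1. They were -1.53 for Pax3, 2.30 for the keratin Krt19 and 1.29 for the uroplakin Upk1b, both mesothelial.

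The vehicle arrays of these genes also differed. On them, transgenic against wild type, Ankrd2 was 3.39-fold lower, Csrp3 2.32-fold lower, Krt19 2.22-fold lower, Upk1b 1.59-fold lower, Ccn1 2.34-fold higher and Pax3 2.38-fold higher. The wild-type vehicle array is the one with the high 18S signal, and its part in these values was not tested.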

How the results depend on the processing

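The count of 6 genes called with chlorhexidine was 5 to 7 in wild type and 4 to 7 in transgenic mice over 13 alternatives each. The log2 differences of those 6 genes stayed above 0 in all 108 values from the scaling, pseudocount, probe set and vehicle array alternatives, and reached 1 in 106. The other two were Chrng in transgenic mice with a pseudocount of 32 (0.72) and Myog in transgenic mice against the wild-type vehicle array (0.88). The wild-type median of 2.03 became 2.55 against the transgenic vehicle array. The vehicle count of 0 called between genotypes became 1 with signals as deposited, 2 without the filter on dim probe sets and 1 at 1.5-fold, and the chlorhexidine count of 3 became 0 at 3-fold, and 2 with a pseudocount of 32 or the mean of probe sets, where Chrng was lost. The limma count of 0 became 6 with signals as deposited, 3 with median centring, 3 when recentred on adult fibre genes, 6 with a pseudocount of 32 and 6 with an intensity trend in the prior, where all-gene counts were 722, 160, 161, 1991 and 2186. The cause was not tested.

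Over all genes, the median wild-type difference moved from -0.00 to -0.23 with median centring, -0.11 with quantile normalization, 0.26 when recentred on fibre genes and 0.25 as deposited. No analysis paired by mouse was possible because each group has 1 array and the labels carry no replicate numbers. The limma fit compares treatments within genotype through its genotype term. For Chrng, Chrnd, Mymx and Megf10 the vehicle signal was not above background, which limits their folds to bounds or gives none.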

Other observations

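Slow muscle fibre genes formed the low end of the adult fibre list. Myh7, the slow myosin heavy chain, had signals of 7662 with vehicle and 2494 with chlorhexidine in wild type, and 4514 and 2453 in transgenic mice, 3.07-fold and 1.84-fold lower. Slow troponin Tnnt1 went from 3809 to 1401 and from 2543 to 1515, 2.72-fold and 1.68-fold lower. These were the only 2 of the 20 fibre genes called, both in wild type alone, and both were chosen after their values were seen. The related myosin Myh7b, called lower in wild type at 2.21-fold, was 1.23-fold lower in transgenic mice, and Csrp3 was 2.27-fold lower and 1.22-fold higher. For each of the 4 genes the wild-type vehicle array was the highest of all, and between the chlorhexidine arrays they differed by 1.02-fold to 1.19-fold. 

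Mesothelial markers, 8 of 8 Present on every array, had a median log2 difference of -0.76 in wild type. It was 0.31 in transgenic mice, and the values were -0.12 and -0.20 with the vehicle arrays exchanged. Their summed signal was 691 and 403 in wild type (vehicle, chlorhexidine) and 537 and 592 in transgenic mice. Of the 8 markers, 2 had a positive log2 difference in wild type and 6 in transgenic mice. Upk3b, a uroplakin of the mesothelium, was 3.36-fold and 1.20-fold lower. Wt1 was 1.93-fold and 2.38-fold higher, called in transgenic mice alone. Further YAP and TEAD targets called in wild type were the receptor kinase Axl (2.31-fold, and 1.70-fold in transgenic mice) and tissue factor F3 (2.24-fold and 1.34-fold).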
